A study of Mus musculus with 6 samples.

Results

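The kidney both makes and destroys the active vitamin D hormone, and it decides how much filtered calcium returns to the blood. These measurements cover 10 genes of that system in mouse kidney cortex: Cyp24a1, Cyp27b1, Vdr, Pth1r, Trpv5, Trpv6, Calb1, S100g, Slc8a1 and Atp2b1. They were chosen by name from the 24421 genes of a deposited RNA-seq count table, and all 10 were present in it and were tested. RNA came from the cortex of mice with I-PpoI expression specific to proximal tubular epithelial cells (PT-I-PpoI, 3 libraries) and of wild type mice (3 libraries). I-PpoI is a homing endonuclease that leaves double-strand breaks in DNA. The promoter that drives I-PpoI, and the strain, age, sex and any treatment of the mice, are not given in the sources used here. The labels name no individual mouse for any library, so the p-values reflect spread between these libraries that may be technical.

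As background, proximal tubule cells take up the circulating vitamin D precursor with its carrier protein, and the mitochondrial enzyme Cyp27b1 converts it to calcitriol, the hormone. Cyp24a1 starts the breakdown of both. Parathyroid hormone (PTH), acting through Pth1r, raises Cyp27b1 and lowers Cyp24a1, whereas calcitriol, acting through its nuclear receptor Vdr, and the bone hormone FGF23 do the reverse. In the late distal convoluted tubule and connecting tubule, calcium enters cells through the channel Trpv5, and in part Trpv6, is carried by the calbindins Calb1 and S100g, and leaves by the sodium-calcium exchanger Slc8a1 and the calcium pump Atp2b1.

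Promoters are shown for 4 genes whose values the results turn on: the enzyme with the widest range between libraries, the channel pair, and the gene with the highest level. Each runs from 250 bases before the annotated start to 50 bases after it, 5′ to 3′ on the gene's strand, from RefSeq (GRCm38.p6). Cyp27b1 is at chr10:127047996-127048295 (+ strand), Trpv5 at chr6:41680674-41680973 (- strand), Trpv6 at chr6:41636356-41636655 (- strand) and S100g at chrX:162964550-162964849 (- strand). Capitals mark matches, on either strand, to the TATA box TATAAA, to the CCAAT box and to TGACG, the core of the cyclic AMP response element.
Cyp27b1: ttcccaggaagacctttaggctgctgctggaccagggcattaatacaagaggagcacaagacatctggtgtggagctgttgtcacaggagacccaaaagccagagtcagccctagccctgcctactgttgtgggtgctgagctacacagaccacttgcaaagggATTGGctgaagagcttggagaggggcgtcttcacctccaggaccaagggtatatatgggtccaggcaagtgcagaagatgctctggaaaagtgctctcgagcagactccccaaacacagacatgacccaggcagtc
Trpv5: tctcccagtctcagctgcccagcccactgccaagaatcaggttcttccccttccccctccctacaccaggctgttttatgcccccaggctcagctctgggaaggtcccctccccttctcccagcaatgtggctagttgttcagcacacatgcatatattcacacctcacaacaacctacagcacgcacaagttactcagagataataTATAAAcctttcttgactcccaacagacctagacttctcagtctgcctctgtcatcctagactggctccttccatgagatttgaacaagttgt
Trpv6: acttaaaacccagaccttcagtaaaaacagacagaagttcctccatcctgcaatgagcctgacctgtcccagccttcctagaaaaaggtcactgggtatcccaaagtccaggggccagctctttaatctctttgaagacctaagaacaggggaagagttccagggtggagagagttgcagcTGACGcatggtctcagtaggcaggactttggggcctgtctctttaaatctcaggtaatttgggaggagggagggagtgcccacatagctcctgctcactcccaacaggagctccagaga
S100g: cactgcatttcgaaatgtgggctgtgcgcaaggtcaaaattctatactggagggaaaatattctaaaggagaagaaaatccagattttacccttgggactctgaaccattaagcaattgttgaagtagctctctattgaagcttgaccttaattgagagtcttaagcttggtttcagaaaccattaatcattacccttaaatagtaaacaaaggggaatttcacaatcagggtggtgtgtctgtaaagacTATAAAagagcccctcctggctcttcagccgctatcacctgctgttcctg

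Of the 10 genes, 8 matched the promoter table by symbol, with 11 promoters in all; the other 2 are Cyp24a1 and Calb1. The DR3 form of the vitamin D response element, the direct repeat to which Vdr binds with its partner Rxr, was searched on both strands as well. It matched 0 of the 11 promoters and 0.256% of all 32851 promoters of the same length. TATAAA was found in Trpv5 at position -43 from the start and in S100g at position 1, and in 13.6% of all promoters. CCAAT was found on the opposite strand in Cyp27b1, at -86, in Pth1r at -25, and in 37.4% of all. TGACG was found in Trpv6 at -69, on the opposite strand in Pth1r at -161 and Atp2b1 at 6, and in 20.8% of all. These matches are descriptions of letters in a window and do not show binding.

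Libraries held 13582540 to 20861021 counted read pairs. Library names in the labels come in 2 forms: PT-I-PpoI replicate 3 and wild type replicates 2 and 3 carry a hyphen that the other 3 names lack. Nothing calls this a batch, but 3.06% of genes differed by name form in an edgeR fit with both terms. In wild type replicate 3, 2 liver transcripts stood out: Cyp3a11 had 178 read pairs against 2 to 6 in the other libraries, and Alb 2210 against 134 to 217 (Alb was chosen after its values were seen). Markers of the thick ascending limb summed to 5879 to 6003 CPM (read pairs scaled to a common library total) in PT-I-PpoI, against 4021 to 4456 in wild type. The sums of 8 proximal tubule markers were 10035 to 11472 CPM and 12185 to 13267 CPM, in the same order. A pair of urea transporter genes that mark the medulla summed to 87.5 to 108 CPM in PT-I-PpoI, against 8.43 to 31.1 in wild type, although all libraries were labelled as cortex. In such bulk tissue, fewer cells of a type and less RNA per cell cannot be told apart.

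None of the 10 genes differed between PT-I-PpoI and wild type after adjustment over all 13977 genes tested (edgeR's quasi-likelihood test, Benjamini-Hochberg threshold 0.05, which 0.136% of all genes passed, all of them higher). The count was also 0 by DESeq2 (1.32% of all genes called) and by limma-voom (14 of all genes called, all of them higher). As edgeR and limma-voom called 0 of all genes lower, their counts of 0 say little about lower levels. Limma on the deposited log2 values called 0 of all genes, so its count of 0 says nothing about these 10. None of the 10 had an unadjusted edgeR p under 0.05, as 6.42% of all genes did towards higher and 5.61% towards lower levels, and DESeq2 gave 1 such p, towards lower. Fold changes were below 0 on the log2 scale for 8 of the 10, with a median of -0.21 against 0.0004 over all genes tested. Trpv5 was lower and Trpv6 higher in all 3 PT-I-PpoI libraries than in any wild type one. Such separation was seen in 7.74% of all genes towards lower and 9.23% towards higher levels. The remaining 8 genes overlapped between the groups.

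**Figure D1:**
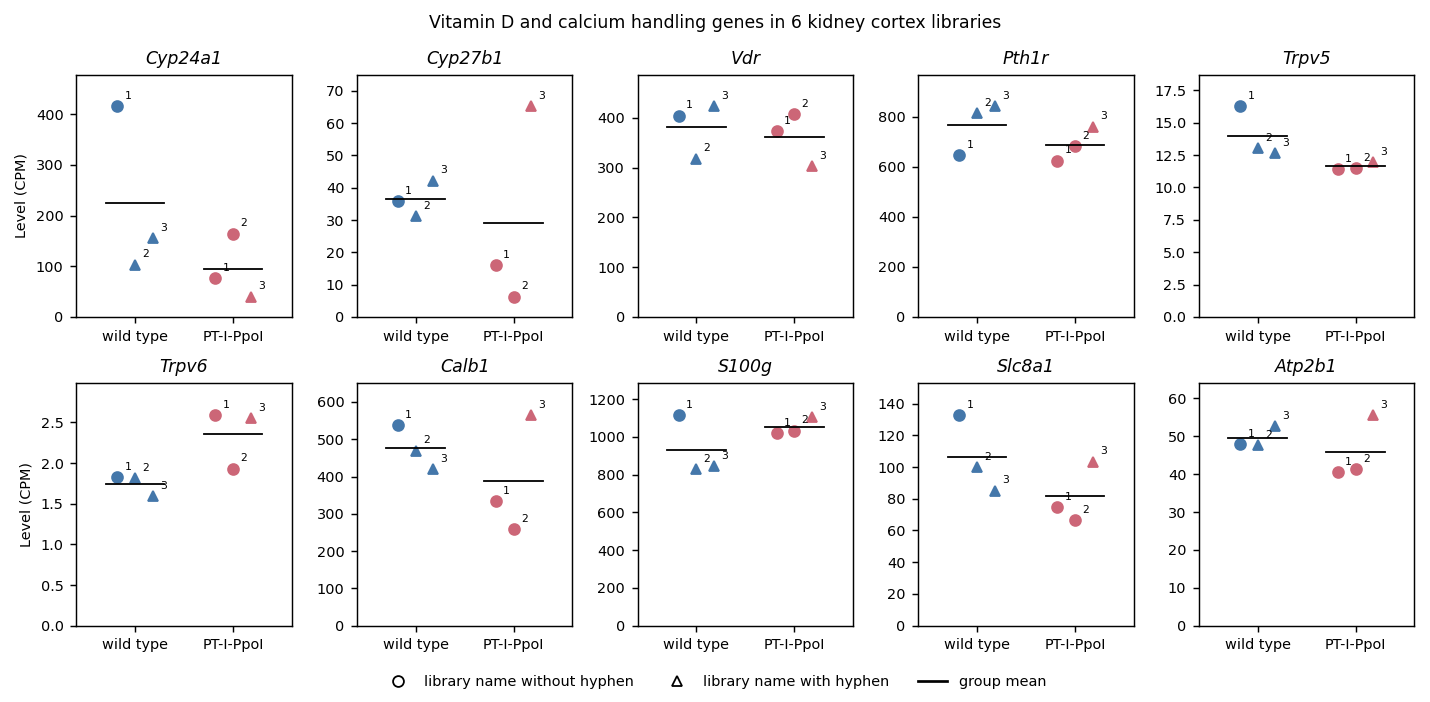
Level of each gene in CPM (counts scaled to a common total, vertical axes from 0) in 3 wild type (blue) and 3 PT-I-PpoI (red) libraries, with replicate numbers, group means as lines and the form of the library name as the symbol. Trpv5 and Trpv6 separate the groups, Cyp27b1 spans 6.29 to 65.3 CPM within PT-I-PpoI, and the other genes overlap.

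Per exon length the genes spanned more than 3 orders of magnitude in the order of the wild type means, given in CPM per kb of exon ± SD (n = 3). S100g (calbindin-D9k) was highest at 1936 ± 337, followed by Pth1r at 282 ± 38.9, Calb1 (calbindin-D28k) at 166 ± 20.7 and Vdr at 87.8 ± 12.9. Cyp24a1 came next at 68.3 ± 50.8 and Cyp27b1 at 15.1 ± 2.26. Atp2b1, Slc8a1 and Trpv5 lay close together, at 6.94 ± 0.39, 5.67 ± 1.30 and 5.38 ± 0.77, and Trpv6 was lowest at 0.597 ± 0.045. Wild type libraries overlapped between Vdr and Cyp24a1, between Atp2b1 and Slc8a1, and between Slc8a1 and Trpv5, so the order of those neighbours is within their spread. In PT-I-PpoI the order of means was the same apart from Trpv5, at 4.47 ± 0.12, and Slc8a1, at 4.35 ± 1.04, which changed places.

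**Figure D2:**
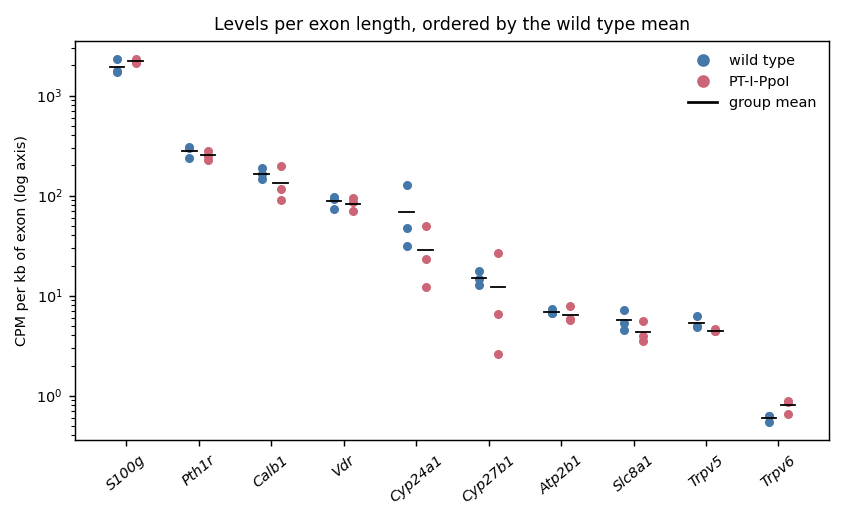
Levels in CPM per kb of exon (log axis) in each library, with group means as short lines and genes in the order of the wild type mean. S100g lies highest and Trpv6 lowest in both groups.

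Cyp24a1 (chr2:170482965-170497138, mm10, - strand), the enzyme that inactivates calcitriol, averaged 2.40-fold lower in PT-I-PpoI, but with a spread that left the difference short of the threshold. It was at 77.3, 164 and 40.1 CPM in PT-I-PpoI replicates 1 to 3 and at 416, 103 and 156 CPM in wild type replicates 1 to 3. Wild type replicate 1 was far above the rest, and PT-I-PpoI replicate 2 lay above wild type replicates 2 and 3. The log2 fold change was -1.26 ± 0.58 (SE; 95% interval -2.59 to 0.07; edgeR adjusted p = 0.427). Within each name form the level in PT-I-PpoI was lower. The log2 difference was -1.88 among names without a hyphen, where wild type replicate 1 was the only wild type library. It was -1.66 among names with one, where PT-I-PpoI replicate 3 was the only PT-I-PpoI library. Cyp24a1 also differed between the forms themselves, being lower in hyphenated libraries (log2 difference -1.64 ± 0.27, edgeR adjusted p = 0.0169, a call 1.29% of genes received in that direction). With the name form as a term, Cyp24a1 was the 1 gene of the 10 that passed, 3.35-fold lower in PT-I-PpoI (log2 fold change -1.74 ± 0.27, edgeR adjusted p = 0.0436), where 0.107% of all genes passed as lower. Over the 15 alternative fits its adjusted p ran from 0.0436 to 0.744. That call ended when PT-I-PpoI replicate 1, wild type replicate 1 or wild type replicate 3 was left out of the fit with the name form (edgeR adjusted p = 0.0624, 0.183 and 0.145), with log2 fold changes of -1.53, -1.70 and -1.62. Without wild type replicate 1, the fit with the name form compared PT-I-PpoI replicate 3 alone with wild type replicates 2 and 3. In the fit on group alone, leaving out wild type replicate 1 brought the log2 fold change to -0.47. Leaving out PT-I-PpoI replicate 2 brought it to -1.94. The exons of Cyp24a1 share 83 bases with those of Pfdn4, a chaperone subunit gene, which was at 11.7 to 17.2 CPM (log2 fold change 0.22, edgeR adjusted p = 0.545).

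Cyp27b1 (chr10:127048246-127053006, + strand), which makes calcitriol, varied more within PT-I-PpoI than between the groups. It was at 16.0, 6.29 and 65.3 CPM in PT-I-PpoI replicates 1 to 3, against 35.9, 31.3 and 42.2 CPM in wild type. PT-I-PpoI thus held both the 2 lowest libraries and the highest one. The log2 fold change was -0.35 ± 0.65 (95% interval -1.82 to 1.13; edgeR adjusted p = 0.848). It differed in sign between name forms, at -1.82 without a hyphen and 0.84 with one. Without PT-I-PpoI replicate 3 the gene passed as lower (log2 fold change -1.70 ± 0.32, edgeR adjusted p = 0.0334), in a fit that called 2.56% of all genes lower. Without PT-I-PpoI replicate 2 the log2 fold change was 0.14, and over the 15 alternatives its adjusted p ran from 0.0334 to 0.991. The highest library exceeded the lowest 10.4-fold for Cyp27b1 and 10.4-fold for Cyp24a1, ranges wider than those of 99.7% of the 13225 genes with a mean of at least 1 CPM. No other gene of the 10 spanned more than 2.18-fold.

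The enzymes did not keep a fixed ratio. The ratio of Cyp24a1 to Cyp27b1, per exon length, was 3.54, 19.2 and 0.451 in PT-I-PpoI replicates 1 to 3 and 8.52, 2.43 and 2.72 in wild type. PT-I-PpoI contained both extremes, and replicate 3 was the only library with more Cyp27b1 than Cyp24a1. The groups differed by -0.29 in mean log2 ratio (exact permutation test, two-sided, p = 1; 3 against 3 libraries cannot go below 0.1). Within libraries named with a hyphen the difference was -2.51, and within those without it was -0.05.

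**Figure D3:**
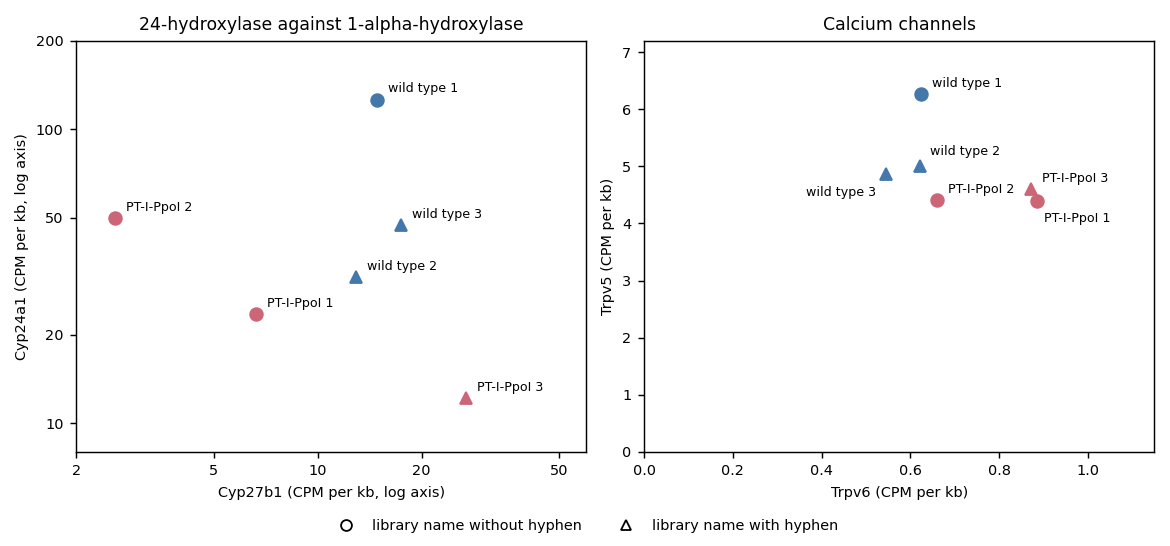
Left, Cyp24a1 against Cyp27b1, and right, Trpv5 against Trpv6, both in CPM per kb of exon (left on log axes, right from 0), 1 point per library, red PT-I-PpoI and blue wild type, with the symbol giving the form of the library name. PT-I-PpoI replicates 2 and 3 lie at opposite ends for the enzymes, and the PT-I-PpoI libraries lie below and to the right of the wild type ones for the channels.

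The receptors of both hormones overlapped between the groups and did not pass. Vdr (chr15:97854427-97908296, - strand), the calcitriol receptor, was at 374, 408 and 303 CPM in PT-I-PpoI and 405, 318 and 424 CPM in wild type. Pth1r (chr9:110722085-110747145, - strand), the PTH receptor, was at 624, 681 and 760 CPM against 646, 815 and 841 CPM. Their order among libraries differed, Vdr being lowest in PT-I-PpoI replicate 3 and Pth1r in PT-I-PpoI replicate 1. The log2 fold change of Vdr was -0.08 ± 0.14 (95% interval -0.41 to 0.24; edgeR adjusted p = 0.839). That of Pth1r was -0.16 ± 0.13 (-0.45 to 0.13; edgeR adjusted p = 0.622), and ran from -0.27 without wild type replicate 1 to -0.087 without wild type replicate 3 and -0.093 without PT-I-PpoI replicate 1. For Pth1r the difference between name forms, 0.29 ± 0.08 higher with a hyphen, was larger than that between the groups, although it did not pass (edgeR adjusted p = 0.081).

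The calcium entry channels lay on opposite sides of 0. Trpv5 (chr6:41652770-41680723, - strand), the main apical calcium channel of the distal nephron, was at 11.43, 11.48 and 11.98 CPM in PT-I-PpoI and 16.28, 13.02 and 12.65 CPM in wild type. The groups did not overlap, although PT-I-PpoI replicate 3 came close to wild type replicate 3. Its log2 fold change was -0.27 ± 0.13 (95% interval -0.56 to 0.02; edgeR adjusted p = 0.436), and -0.14 without wild type replicate 1. Trpv6 (chr6:41620619-41636405, - strand), its neighbour on the chromosome and close relative, was at 2.59, 1.93 and 2.55 CPM against 1.83, 1.82 and 1.59 CPM. All 3 PT-I-PpoI libraries were above all 3 wild type ones. These levels rest on 24 to 49 read pairs per library. The exact 95% Poisson interval of wild type replicate 2, the shallowest library, reached from 1.16 to 2.70 CPM, which covers 3 of 3 PT-I-PpoI values. Those of wild type replicates 1 and 3 were narrower, from 1.29 to 2.51 and from 1.09 to 2.25 CPM. Both cover the value of PT-I-PpoI replicate 2 but not those of PT-I-PpoI replicates 1 and 3. Such intervals cover counting error only. The log2 fold change was 0.43 ± 0.23 (95% interval -0.09 to 0.95; edgeR adjusted p = 0.469).

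Trpv5 exceeded Trpv6 in every library, and the margin was smaller in the PT-I-PpoI libraries. Per exon length the ratio was 4.96, 6.69 and 5.29 in PT-I-PpoI replicates 1 to 3 and 10.02, 8.07 and 8.94 in wild type. The groups could not overlap in this ratio, since Trpv5 was lower and Trpv6 higher in every PT-I-PpoI library. The mean log2 ratio differed by -0.68, with -0.80 and -0.68 within names without and with a hyphen. The exact permutation p was 0.1, the smallest that 3 against 3 can give, and 0.4 after Benjamini-Hochberg adjustment over the 4 ratios computed. Depth limits this ratio through the low counts of Trpv6. Trpv5 and Trpv6 are related in sequence, and reads that map to both would not have been counted with the stated settings.

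The calbindins, which buffer and carry calcium through the cell, had mean differences on opposite sides of 0 and did not pass. Calb1 (chr4:15881264-15906709, + strand) was at 335, 260 and 565 CPM in PT-I-PpoI and 538, 469 and 420 CPM in wild type. PT-I-PpoI replicates 1 and 2 were the lowest libraries and replicate 3 the highest. The log2 fold change was -0.30 ± 0.25 (95% interval -0.87 to 0.27; edgeR adjusted p = 0.638), with -0.87 and 0.35 within names without and with a hyphen. Without PT-I-PpoI replicate 3, Calb1 passed as lower (log2 fold change -0.68 ± 0.14, edgeR adjusted p = 0.042), again where 2.56% of genes did, and its adjusted p over the 15 alternatives ran up to 0.964. Without PT-I-PpoI replicate 2 its log2 fold change was -0.082. S100g (chrX:162961992-162964599, - strand) was at 1021, 1033 and 1103 CPM in PT-I-PpoI and 1116, 827 and 845 CPM in wild type. Its PT-I-PpoI libraries lay close together, between wild type replicate 1 and the other wild type libraries. The log2 fold change was 0.18 ± 0.13 (95% interval -0.11 to 0.47; edgeR adjusted p = 0.583), with 0.33 without wild type replicate 1, 0.10 without wild type replicate 2 and 0.11 without wild type replicate 3. The ratio of S100g to Calb1 per exon length was 18.2, 23.8 and 11.7 in PT-I-PpoI and lay between 10.5 and 12.4 in wild type, and the mean log2 ratio differed by 0.56 (exact permutation p = 0.3, adjusted 0.533).

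The genes of basolateral exit averaged lower in PT-I-PpoI without passing. Slc8a1 (chr17:81373105-81738387, - strand), the sodium-calcium exchanger, was at 74.6, 66.3 and 103 CPM in PT-I-PpoI and 133, 100 and 85.2 CPM in wild type. Atp2b1 (chr10:98915152-99026143, + strand), the plasma membrane calcium pump, was at 40.4, 41.4 and 55.6 CPM against 48.0, 47.7 and 52.7 CPM. In both, PT-I-PpoI replicates 1 and 2 were lowest and replicate 3 lay among or above the wild type libraries. The log2 fold changes were -0.38 ± 0.20 for Slc8a1 (95% interval -0.83 to 0.06; edgeR adjusted p = 0.459) and -0.11 ± 0.13 for Atp2b1 (-0.40 to 0.17; edgeR adjusted p = 0.725). Leaving out wild type replicate 1 brought Slc8a1 to -0.19, and leaving out PT-I-PpoI replicate 3 brought it to -0.59 and Atp2b1 to -0.27. Atp2b1 was at -0.032 without PT-I-PpoI replicate 1, -0.047 without PT-I-PpoI replicate 2 and -0.065 without wild type replicate 3. With PT-I-PpoI replicate 3 left out and the name form as a term, an alternative chosen after the data were seen, Slc8a1 passed as lower (log2 fold change -0.91 ± 0.11, edgeR adjusted p = 0.00484), where 2.35% of all genes did, against -0.38 with all 6 libraries. In that fit without PT-I-PpoI replicate 3, all hyphenated libraries were wild type. The group difference therefore compared PT-I-PpoI replicates 1 and 2 with wild type replicate 1 alone. In the same kind of fit Slc8a1 was at -0.26 without PT-I-PpoI replicate 2. It was at 0.16 without wild type replicate 1, where PT-I-PpoI replicate 3 was the only PT-I-PpoI library compared. The ratio of Slc8a1 to Atp2b1 per exon length was 0.703, 0.611 and 0.708 against 1.06, 0.800 and 0.616, with a log2 difference of -0.26 (exact permutation p = 0.4, adjusted 0.533).

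**Figure D4:**
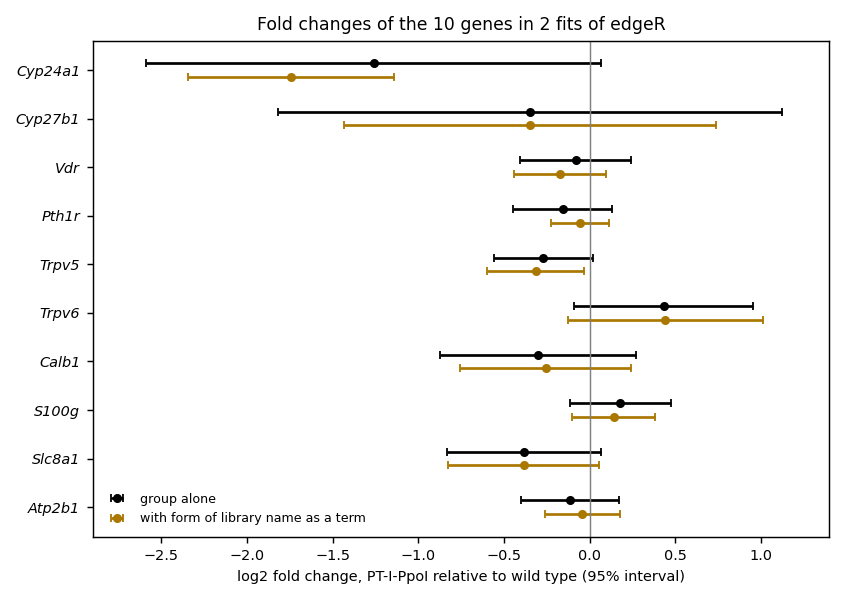
Log2 fold change of each gene (PT-I-PpoI over wild type) and its 95% interval, from edgeR fits on group alone (black) and with the form of the library name as a term (brown). All intervals on group alone include 0, and with the name form those of Cyp24a1 (-2.35 to -1.14) and Trpv5 (-0.60 to -0.03; edgeR adjusted p = 0.338) do not.

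A pattern across libraries, chosen after the values were seen, was shared by genes of both segments. PT-I-PpoI replicates 1 and 2 were the 2 lowest of the 6 libraries for 5 of the 10 genes (Cyp27b1, Trpv5, Calb1, Slc8a1 and Atp2b1), and for 18% of all genes tested. PT-I-PpoI replicate 3 was the highest for 3 of them (Cyp27b1, Calb1 and Atp2b1), and for 15.1% of all genes. The log2 differences within each name form restate this split, as names without a hyphen hold PT-I-PpoI replicates 1 and 2. The other form holds replicate 3, and each form has 1 library on 1 side of the comparison. Values are given without and then with a hyphen. Slc8a1 was at -0.92 and 0.16, Atp2b1 at -0.23 and 0.15, and S100g at -0.12 and 0.40, so their sign turned. It held for Trpv5 at -0.50 and -0.10, for Trpv6 at 0.28 and 0.55 and for Vdr at -0.05 and -0.28, while Pth1r was at 0.01 and -0.12. Markers of the distal convoluted tubule summed to 2283 to 2541 CPM in PT-I-PpoI, against 1813 to 2456 in wild type, and connecting tubule markers to 3583 to 4129 CPM, against 3333 to 3879. Distal convoluted tubule markers had fold changes above 0 for 1 of 6 genes (median log2 fold change -0.09), connecting tubule markers for 5 of 5 (0.16), and none passed by edgeR. The part of segment content in the levels of Trpv5, Calb1 and Slc8a1 was not tested.

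By root mean square difference of centred log2 levels over the 6 libraries, the genes most like Cyp24a1 among 13224 others were Dio3os (0.48), Camk2b (0.57) and Ccdc27 (0.64), where Cyp24a1 itself varied by 1.04. Dio3os is an RNA from the strand opposite Dio3, and Camk2b is a calcium-dependent kinase subunit. All 3 were highest in wild type replicate 1 and lowest in PT-I-PpoI replicate 3, as was Cyp24a1, which follows from how they were picked. Ccdc27 was low, at 1.06 to 3.03 CPM. Among the 3 genes most like Trpv5 were Fpgt (0.05) and Rtn1 (0.05), beside a variation of 0.17 for Trpv5 itself. Rtn1 was also low, at 1.32 to 1.97 CPM. Unlike in Trpv5, wild type replicate 3 lay below PT-I-PpoI replicate 3 in Fpgt (16.9 against 17.2 CPM) and in Rtn1 (1.3448 against 1.3465 CPM).

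The wider pathway was described through 3 lists. Of 16 genes of vitamin D uptake, metabolism and Vdr partners, 15 were tested, 0 passed by edgeR or DESeq2, and 13 had fold changes below 0 (median log2 fold change -0.13; 0 higher and 2 lower at an unadjusted edgeR p under 0.05). Dab2, the adaptor of the megalin receptor that takes up carrier-bound vitamin D, was at 479, 444 and 544 CPM in PT-I-PpoI and 561, 597 and 612 CPM in wild type (log2 fold change -0.27 ± 0.10, edgeR adjusted p = 0.361). Gc, the vitamin D carrier, had the smallest p towards higher levels, at 0.32 ± 0.28 (edgeR adjusted p = 0.652). Cyp2r1, which makes the precursor of calcitriol and was chosen after its values were seen, was at 0.717 to 0.992 CPM against 1.21 to 2.12 CPM (log2 fold change -0.87 ± 0.33, edgeR adjusted p = 0.368). The proximal tubule markers also had fold changes below 0, for 8 of 8 genes, with a median of -0.22, and their part in these values was not tested.

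PTH and FGF23 signalling genes lay on both sides of 0. Of 22 genes, 19 were tested, 0 passed by edgeR or DESeq2, and 6 had fold changes above 0 and 13 below (median log2 fold change -0.03; 2 higher and 2 lower at an unadjusted edgeR p under 0.05). Slc9a3r1 (NHERF1), a scaffold for Pth1r and the phosphate transporters, was at 262, 251 and 345 CPM in PT-I-PpoI and 328, 409 and 440 CPM in wild type (log2 fold change -0.46 ± 0.15, edgeR adjusted p = 0.322). Adcy6, an adenylyl cyclase that signals from PTH and vasopressin receptors, was at 177, 198 and 141 CPM against 144, 133 and 141 CPM (log2 fold change 0.30 ± 0.12, edgeR adjusted p = 0.392). Klotho (Kl), the FGF23 co-receptor, chosen after its values were seen, averaged lower without passing (log2 fold change -0.37 ± 0.13, edgeR adjusted p = 0.353). Pth2r was at 0 read pairs in all 6 libraries.

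Of 25 other calcium transport genes, 20 were tested, with 0 passing by edgeR and 2 called higher by DESeq2. The median log2 fold change was 0.06, 11 lay above 0, and unadjusted edgeR p under 0.05 were found for 5 higher and 1 lower. Anxa2, an annexin that with S100a10 carries Trpv5 to the cell surface, was at 83.0, 90.6 and 69.9 CPM in PT-I-PpoI and 59.8, 53.1 and 45.6 CPM in wild type, without overlap (log2 fold change 0.62 ± 0.13, edgeR adjusted p = 0.150). It passed by DESeq2 (adjusted p = 0.0029), where 0.898% of genes were called higher, and in the fit with the name form (log2 fold change 0.52, edgeR adjusted p = 0.0452; 0.351% of genes called higher). Cldn12, a claudin linked to calcium passage between cells, had the smallest p in the other direction (log2 fold change -0.18 ± 0.07, edgeR adjusted p = 0.388). Among those chosen after their values were seen, the thick ascending limb genes Umod, Cldn16 and Cldn19 had log2 fold changes of 0.45, 0.41 and 0.50, Umod being the other gene that DESeq2 called (adjusted p = 9.37e-06). These 3 are also among the 6 thick ascending limb markers, all of which were higher in PT-I-PpoI without overlap, as were 9.23% of all genes. The part of segment content in their values was not tested.

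**Figure D5:**
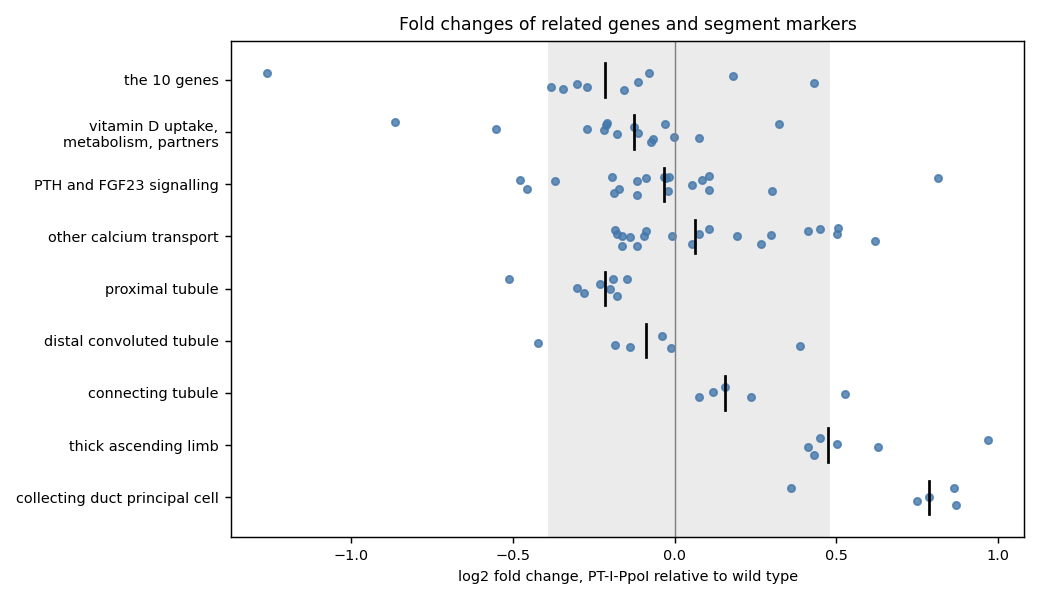
Log2 fold change of each tested gene (points, vertical scatter only for legibility) in the 10-gene set, 3 pathway lists and 5 marker lists, with list medians as black bars, a grey line at 0 and the central 90% of all genes (-0.39 to 0.48) shaded. Cyp24a1 lies farthest to the left, and thick ascending limb and collecting duct markers lie to the right of 0.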

How the data were processed

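The authors deposited a table of raw counts with 24421 genes. HISAT2 did the mapping (per the labels' protocols), and read pairs over exons were counted with featureCounts 1.5.2, with no strand option per the file headers although the kit marks strand, so reads shared with an antisense gene cannot be told apart. The header names mm10 and the labels' protocols mm9. All 10 genes overlapped their GRCm38.p6 (mm10) positions and 0 their NCBIM37 (mm9) positions, so coordinates are mm10. The authors also deposited rlog values (log2 scale), used for 1 alternative.

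Counts were tested in R 4.3.3 with edgeR 4.0.16: filterByExpr (minimum count 10; 13977 genes kept), TMM scaling, and a quasi-likelihood test on group alone over all 6 libraries, with p-values (two-sided) adjusted by Benjamini and Hochberg's method. CPM use the TMM-scaled total. SE is the log2 fold change divided by the square root of F. Log2 levels used a prior count of 2. The procedure was tested on simulated data. Alternatives used DESeq2 1.42.0 and limma 3.58.1.

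The genes, pathway lists and marker lists were chosen with earlier results of these data known. Named genes are the 10, the smallest p in each direction of each pathway list plus any that passed, and the 3 most similar to Cyp24a1 and to Trpv5, of which 1 is not reported here. Podocyte, endothelial, macrophage, fibroblast and mural, and adrenal markers had medians of 0.15, 0.08, 0.09, 0.15 and 0.10 (log2), and 0 passed. Collecting duct markers had a median of 0.79, and 2 of 5 passed, against 0.136% of all genes. These were Avpr2 and Aqp4, chosen after their values were seen (edgeR adjusted p = 0.0385 and 0.0496). The collecting duct sums were 503 to 711 CPM in PT-I-PpoI against 383 to 404 in wild type. The urea transporters had a median of 1.72, and 0 of 2 passed by edgeR on group alone. Slc14a2, chosen after its values were seen, passed by DESeq2 (adjusted p = 0.0223), where 0.898% of genes were called higher. It also passed in the fit with the name form (edgeR adjusted p = 0.039; 0.351% of genes called higher). Replicate numbers were not taken to pair the libraries.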

Additional observations from a re-analysis of the deposited data

How the results depend on the processing

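Of 13977 genes, 19 passed, all higher, on group alone. Counts were 47 with no filter on low counts, 185 with DESeq2 (126 higher), 0 with limma on the rlog values (unadjusted p under 0.05 for 1091 higher and 956 lower), 64 with the form of the library name as a term, and 0 to 625 when each library was left out (625 without PT-I-PpoI replicate 3, 0 without PT-I-PpoI replicates 1 or 2 or wild type replicate 3). Of the 10 genes, 1 did with the name form as a term, 0 to 2 when each library was left out, and 0 to 4 when each was left out with the name form as a term, an alternative chosen after seeing the data. The 4 were Cyp24a1, Cyp27b1, Calb1 and Slc8a1, without PT-I-PpoI replicate 3, a fit that called 2.35% of all genes lower. All hyphenated libraries in that fit were wild type, so it compared PT-I-PpoI replicates 1 and 2 with wild type replicate 1 alone. Without wild type replicate 1, the fit with the name form compared PT-I-PpoI replicate 3 alone with wild type replicates 2 and 3. In alternative fits other than those with the name form and a library left out, directions held except for Cyp27b1 and Vdr. Cyp27b1 ran from -1.70 to 0.14 with libraries left out, above 0 without PT-I-PpoI replicate 2. Vdr ran from -0.20 to 0.032, above 0 without PT-I-PpoI replicate 3. With the name form as a term, leaving out wild type replicate 1 brought Calb1 to 0.35, Slc8a1 to 0.16, Atp2b1 to 0.14 and Cyp27b1 to 0.82, leaving out PT-I-PpoI replicate 2 brought Cyp27b1 to 0.059, and leaving out PT-I-PpoI replicate 3 brought S100g to -0.12 and Pth1r to 0.018, each the other side of 0 from the fit on group alone. Within libraries of 1 name form, which had no test and held 1 library on 1 side of the comparison, the direction differed for some genes, as given beside them. A replicate block raised the count over all genes to 40 (33 higher) and called 0 of the 10. Correlations of same-numbered libraries' deviations from their group means were 0.22, -0.13 and 0.16, so the numbers were not taken to pair them, and PT-I-PpoI replicate 2 correlated best with wild type replicate 1. With 24 to 49 read pairs per library, Trpv6 is limited by depth.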
